A study of Rattus norvegicus with 18 samples.

Results

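The 34 genes described here make cholesterol and fatty acids or control that synthesis. They were taken by gene name from a list in 3 groups by role, drawn up with earlier results of these data known: 18 enzymes of sterol synthesis, 10 of fatty acid synthesis and desaturation, and 6 genes of regulation by the sterol regulatory element binding proteins (SREBPs) and of sterol transport. Of the 12198 genes with a probe of their own on the larger of 2 array designs, 32 were members, and all 32 passed the filter on level. The smaller design measured 24 of the 34 among 6455 genes, and 21 of these passed the filter there. Hmgcs1 and Srebf1 had no probe assigned to them alone on the larger design and are not described.

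The samples were cardiomyocytes, the beating muscle cells, of rat ventricles (n = 24) taken on postnatal day 1. In 6 samples RNA was taken at time zero, without treatment. In the other groups, of 3 samples each, the cardiac medium was diluted to 50% with hESC medium that was either unconditioned or conditioned by stem cells, with FBS at 5% and HS at 10% in both, and RNA was taken after 24 h or 48 h. By its title the series is about stem cell secretions and cardiomyocyte proliferation. The labels give no strain, sex or clone, do not say how many hearts went into a sample, and name no separate cultures, so the p-values below speak to array-to-array spread alone, and that can be technical. Tests used the 12 arrays of the larger design, 4 at time zero and 2 in each other group.

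Cholesterol is built from acetyl-CoA through mevalonate, farnesyl diphosphate, squalene and lanosterol, and fatty acids are built from the same acetyl-CoA through malonyl-CoA, then lengthened and desaturated. SREBPs, held in the endoplasmic reticulum with Scap by the Insig proteins while sterols are plentiful, are cut and released when sterols fall and raise transcription of most of these enzymes. Heart muscle, which burns fatty acids as fuel, needs cholesterol and unsaturated fatty acids for its membranes.

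Scd2, a stearoyl-CoA desaturase that makes monounsaturated fatty acids, rose above time zero in both media at both times, by 3.28-fold to 6.86-fold. In conditioned medium at 48 h Fads1, a desaturase of polyunsaturated fatty acids, rose as well, and Lss and Elovl6 passed the same test by a smaller margin. No member passed the test between conditioned and unconditioned medium. Time zero differs from the other groups in time, dilution and hESC medium together, and these cannot be told apart.

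Promoter windows are shown for 4 genes: Scd2, Fads1 and Lss, which passed the test against time zero, and Insig1, the sterol-responsive inhibitor, which did not. Each runs from 250 bases before to 50 bases after the start of the gene in RefSeq, in the direction of the gene, on rat build GRCr8. Scd2 is at chr1:253118127-253118426 on the plus strand, Fads1 at chr1:216252442-216252741 on the plus strand, Lss at chr20:12118181-12118480 on the minus strand and Insig1 at chr4:8057720-8058019 on the minus strand. Capitals mark matches to the 4 motifs that were searched on both strands.
Scd2: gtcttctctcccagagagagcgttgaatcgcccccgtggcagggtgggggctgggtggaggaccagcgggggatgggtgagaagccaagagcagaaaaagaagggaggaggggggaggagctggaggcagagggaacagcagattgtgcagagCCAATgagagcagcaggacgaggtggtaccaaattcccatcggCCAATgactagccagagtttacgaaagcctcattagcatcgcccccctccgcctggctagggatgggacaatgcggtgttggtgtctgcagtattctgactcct
Fads1: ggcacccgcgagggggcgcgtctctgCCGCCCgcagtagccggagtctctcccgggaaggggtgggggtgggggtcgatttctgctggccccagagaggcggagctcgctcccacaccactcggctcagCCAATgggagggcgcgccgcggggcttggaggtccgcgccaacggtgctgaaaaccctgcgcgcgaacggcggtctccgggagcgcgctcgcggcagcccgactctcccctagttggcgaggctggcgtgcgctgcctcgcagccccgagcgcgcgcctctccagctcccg
Lss: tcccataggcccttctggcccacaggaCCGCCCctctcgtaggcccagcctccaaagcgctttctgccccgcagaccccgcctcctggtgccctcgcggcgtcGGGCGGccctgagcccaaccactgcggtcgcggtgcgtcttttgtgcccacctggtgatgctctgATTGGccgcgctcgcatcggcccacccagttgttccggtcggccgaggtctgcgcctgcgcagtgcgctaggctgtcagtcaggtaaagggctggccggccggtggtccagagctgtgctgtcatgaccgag
Insig1: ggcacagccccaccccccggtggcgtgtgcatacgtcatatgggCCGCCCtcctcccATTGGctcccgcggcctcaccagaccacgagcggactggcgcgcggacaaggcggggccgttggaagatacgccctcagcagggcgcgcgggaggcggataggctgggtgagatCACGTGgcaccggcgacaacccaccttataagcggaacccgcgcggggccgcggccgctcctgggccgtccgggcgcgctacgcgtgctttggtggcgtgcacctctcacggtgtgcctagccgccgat

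The motifs were the sterol regulatory element written as TCACNCCAC, the NF-Y motif CCAAT, the Sp1 motif GGGCGG and the E-box CACGTG, none of which contains another. On the opposite strand CCAAT reads ATTGG and GGGCGG reads CCGCCC. The Scd2 window held CCAAT 97 and 54 bases upstream of the start, Fads1 121 bases upstream, Lss 82 bases and Insig1 193 bases upstream on the opposite strand. The Sp1 motif lay in the windows of Fads1, Lss and Insig1 and the E-box, 79 bases upstream, in that of Insig1. A window was held for 27 of the 34 genes. CCAAT was in 20 of these 27 (74.1%), against 37.5% of all 33469 windows and 38% of the protein-coding ones. GGGCGG was in 22 (81.5%), against 33.1% of all windows and 41.8% of the protein-coding ones. CACGTG was in 3 of 27, against 6.42% of all windows and 7.01% of the protein-coding ones. TCACNCCAC was in 0 of 27, against 1.12% of all windows and 1.03% of the protein-coding ones. This says only that these letters are not in these windows.

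Log2 changes below are given ± SE from limma after subtracting the median change of all 23694 probes tested in that comparison. Against time zero this median was 0.19 (unconditioned) and 0.18 (conditioned) at 24 h, and 0.01 and 0.16 at 48 h. Between the media it was 0.09 with the times pooled, 0.01 at 24 h and 0.18 at 48 h. A gene was called at a Benjamini-Hochberg adjusted p under 0.05, and p-values test the change before that median was subtracted, so with a positive median an increase passes more easily than a decrease. Levels are median-scaled intensities of the gene's brightest probe, comparable between arrays but not between genes. Unscaled array medians ran from 70.3 to 143.6, and 3 arrays stood apart with a narrower spread of intensities: replicates 4 and 5 of time zero and replicate 2 of unconditioned 48 h (upper over lower quartile 22.4 to 25.7, against 38.7 to 47.8 on the other 9). Of the 10 cardiomyocyte markers 8 were measured and all 8 passed the filter, with a summed intensity of 121547 to 249979 at time zero. The sum was 238973 to 255773 (unconditioned) and 175696 to 217485 (conditioned) at 24 h, and 153607 to 203859 and 182780 to 195320 at 48 h. Between the media, 0 of 8 lay above the median of all probes at 24 h (median change -0.36) and 3 of 8 at 48 h (-0.07), none called. The 4 comparisons with time zero share the same 4 time zero arrays and are given side by side.

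Against time zero, 1 of 32 members was called higher in unconditioned medium at 24 h, where 0.739% of all probes were called higher and 0.0760% lower. In conditioned medium at 24 h it was 1 of 32 (2.57% of all probes higher, 0.599% lower). At 48 h it was 1 of 32 in unconditioned medium (2.03% higher, 0.869% lower) and 4 of 32 in conditioned medium (5.39% higher, 1.07% lower). None was called lower. In the same order 11, 9, 9 and 16 of 32 had an unadjusted p under 0.05, against 9.88%, 15.3%, 13.5% and 19.3% of all probes. The single member called in the first 3 of these comparisons was Scd2, and 1 of 32 is close to the background. In the same order the median member lay 0.41, 0.34, 0.49 and 0.53 above the median of all probes. Above that median were 28, 24, 26 and 26 of the 32 members, and 22 were above it in all 4 comparisons. Sqle, Mvd and Insig2 were below it in all 4. The arrays of 15, 15, 10 and 19 members lay wholly above those of time zero, against 13.0%, 19.3%, 8.28% and 22.4% of all probes, and those of 0 members wholly below, against 3.22%, 5.97%, 6.29% and 7.44%.

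**Figure D1:**
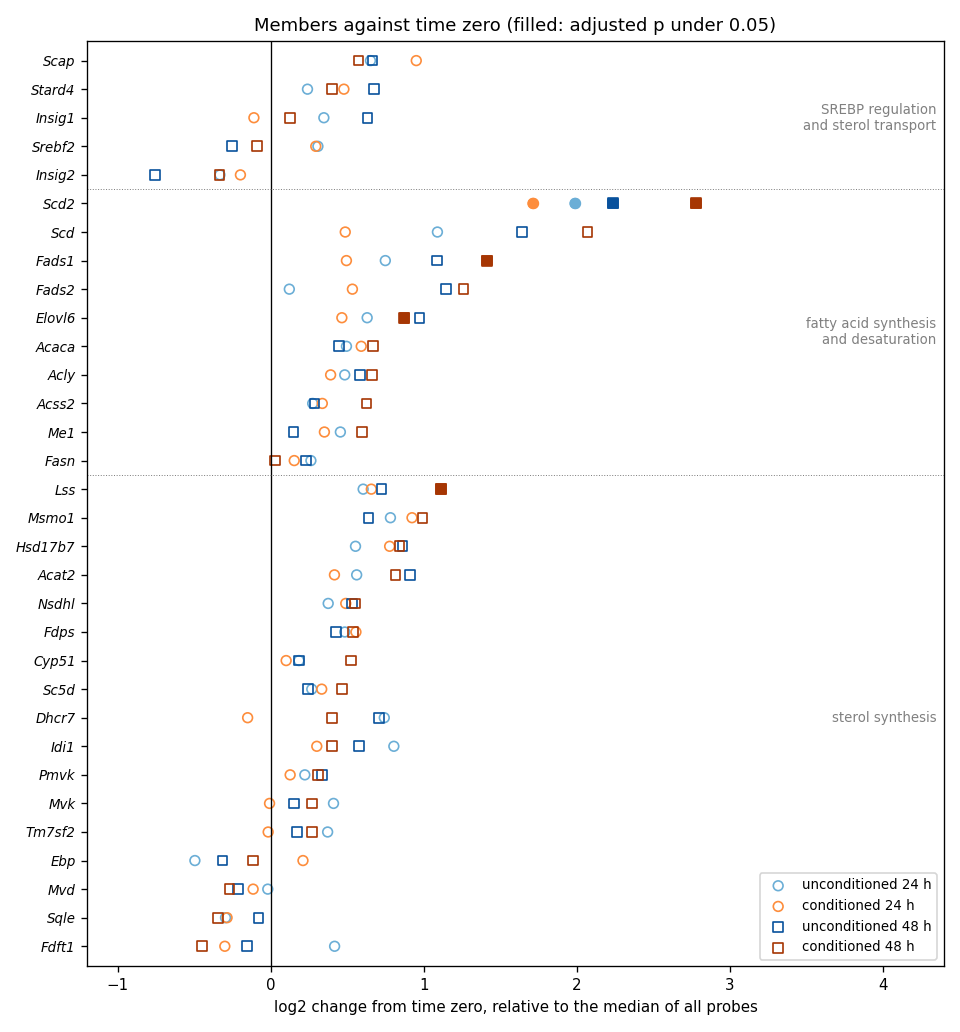
Log2 change from time zero of each of the 32 measured members (horizontal axis, relative to the median of all probes), by group of genes, in each medium at each time; filled symbols have an adjusted p under 0.05. All 4 symbols of Scd2 are filled, those of Fads1, Lss and Elovl6 are filled for conditioned medium at 48 h, and most members lie to the right of 0.

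Of the 4 members called against time zero, 3 belong to fatty acid synthesis and desaturation. On their brightest probes, all 10 measured genes of this group lay above the median of all probes in each of the 4 comparisons with time zero. Group medians, in the order above, were 0.49, 0.48, 0.78 and 0.77. A second Me1 probe past the filter differed, with changes of 0.26, -0.05, -0.53 and -0.09. On the smaller design the brightest Me1 probe changed by 0.12, -0.20, 0.54 and -0.12. Fasn changed there by 0.39, -0.02, 0.02 and -0.57. Those called were 1, 1, 1 and 3 of 10, against the same 0.739%, 2.57%, 2.03% and 5.39% of all probes called higher.

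Scd2 read 681, 399, 469 and 731 at time zero, 2179 and 2862 (unconditioned) and 1984 and 2131 (conditioned) at 24 h. At 48 h it read 2114 and 3262 (unconditioned) and 4714 and 3828 (conditioned). Every medium array lay above every time zero array, and the conditioned arrays at 48 h were the highest. Against time zero Scd2 rose by 1.99 ± 0.33 in unconditioned medium at 24 h (limma adjusted p = 0.0027), by 1.71 ± 0.33 in conditioned medium at 24 h (0.00225), by 2.24 ± 0.33 in unconditioned medium at 48 h (9.08e-04) and by 2.78 ± 0.33 in conditioned medium at 48 h (2.64e-05). Without the 3 arrays that stood apart the changes were 1.87, 1.56, 2.21 and 2.63 and stayed called. At 24 h the call was lost in unconditioned medium without replicate 3 (1.85, adjusted p = 0.137) but kept without replicate 2 (2.12, 0.0244), and it was lost in conditioned medium without replicate 2 (adjusted p = 0.0577) or replicate 3 (0.0831).

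A dimmer Scd2 probe gave changes of 2.0, 2.66, 2.37 and 2.22 in the same order, with adjusted p of 0.123, 0.0124, 0.039 and 0.023. It read 19 to 121 at time zero and 161 to 374 in the medium groups, so these groups did not overlap either. Unlike on the first probe, its conditioned arrays at 48 h (254 and 239) were below those at 24 h (315 and 359). Probe sequences were not analysed here, so whether a Scd2 probe also binds Scd was not tested.

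Scd, the other stearoyl-CoA desaturase on the arrays, was dim. It read 15.9, 26.2, 5.4 and 11.9 at time zero, 17.8 and 54.3 (unconditioned) and 20.2 and 20.6 (conditioned) at 24 h, 39.2 and 41.6 (unconditioned) and 74.0 and 49.3 (conditioned) at 48 h. Both 48 h groups lay above all time zero arrays, while at 24 h the groups overlapped. The change for conditioned medium at 48 h was 2.07 (95% interval 0.33 to 3.81, adjusted p = 0.128).

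Fads1 read 111, 83.3, 109 and 158 at time zero, 160 and 287 (unconditioned) and 150 and 215 (conditioned) at 24 h. At 48 h it read 172 and 336 (unconditioned) and 289 and 387 (conditioned). The conditioned arrays at 24 h overlapped time zero and the other 3 groups did not. The change was 1.41 ± 0.38 (2.66-fold) at 48 h in conditioned medium (limma adjusted p = 0.0167), and 0.75, 0.49 and 1.09 in the 3 other comparisons, which were not called. Without either conditioned 48 h array the call was lost (adjusted p = 0.104 without replicate 2 and 0.301 without replicate 3). Fads2, the partner desaturase that acts earlier on polyunsaturated fatty acids, changed by 1.14 (unconditioned) and 1.26 (conditioned) at 48 h, neither of which was called, and 0.44 and 0.77 on a second probe.

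Elovl6, which lengthens palmitate, read 176, 132, 166 and 185 at time zero, 338 and 246 (unconditioned) and 226 and 290 (conditioned) at 24 h, 281 and 374 (unconditioned) and 344 and 328 (conditioned) at 48 h. No medium array overlapped time zero. The change was 0.87 ± 0.30 in conditioned medium at 48 h, just past the threshold (adjusted p = 0.0477), and 0.97 ± 0.30 in unconditioned medium at 48 h (0.0996). When the change relative to the median of all probes was tested instead, the former was no longer called (adjusted p = 0.114). The call also ended without any 1 of 9 arrays (adjusted p 0.051 to 0.381), and was kept without time zero replicate 6 or either unconditioned 48 h array. A second Elovl6 probe gave 1.06 in conditioned medium at 48 h (adjusted p = 0.0545).

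Fasn, the fatty acid synthase itself, was not called. It read 899, 467, 703 and 619 at time zero, 766 and 1040 (unconditioned) and 784 and 868 (conditioned) at 24 h, 623 and 958 (unconditioned) and 744 and 747 (conditioned) at 48 h. The groups overlapped throughout, and its changes were 0.26, 0.15, 0.23 and 0.03. The remaining enzymes of this group were Acly and Acss2, which make cytosolic acetyl-CoA, Me1, which makes NADPH, and Acaca, which makes malonyl-CoA. On their brightest probes they changed by 0.15 to 0.67 and none was called.

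**Figure D2:**
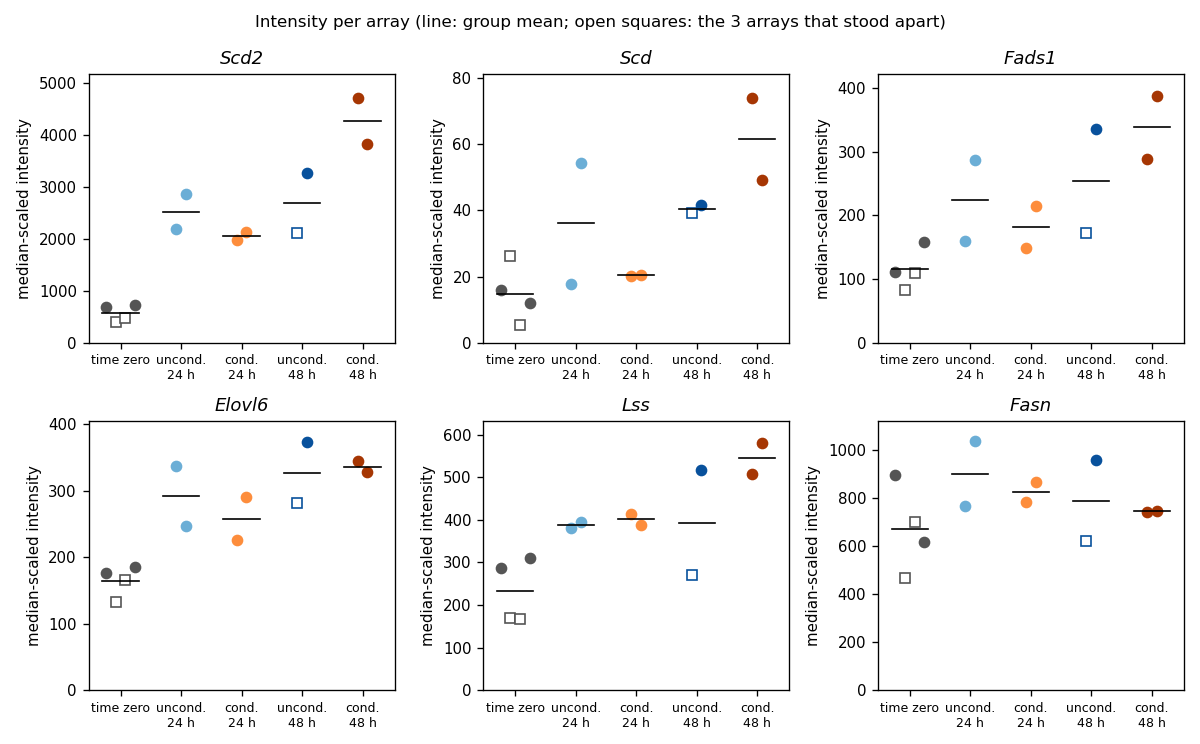
Median-scaled intensity of Scd2, Scd, Fads1, Elovl6, Lss and Fasn on each of the 12 arrays by group, with a line at the group mean; open squares are the 3 arrays that stood apart, and each panel has its own scale because probes differ in brightness. Scd2 on the medium arrays (1984 to 4714) lies above time zero (399 to 731), while Fasn overlaps in every group.

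The 17 measured enzymes of sterol synthesis had group medians of 0.41, 0.21, 0.34 and 0.40 in the same order, with 14, 11, 13 and 13 of 17 above the median of all probes. Those called were 0, 0, 0 and 1 of 17, against 0.739%, 2.57%, 2.03% and 5.39% of all probes called higher. With an unadjusted p under 0.05 there were 6, 5, 3 and 7 of 17, against 9.88%, 15.3%, 13.5% and 19.3%.

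Lss, which closes squalene epoxide to lanosterol, was the one called. It read 288, 171, 166 and 311 at time zero, 381 and 396 (unconditioned) and 415 and 389 (conditioned) at 24 h, 270 and 516 (unconditioned) and 508 and 581 (conditioned) at 48 h. Only the unconditioned 48 h array that stood apart fell within the time zero range. The change in conditioned medium at 48 h was 1.11 ± 0.35 (2.16-fold, adjusted p = 0.0335), and 0.90 ± 0.18 without the 3 arrays that stood apart (0.0075). Tested relative to the median of all probes it was not called (adjusted p = 0.0762), nor without time zero replicate 5 (0.0875), either 24 h unconditioned array (0.0504 and 0.0515), either 24 h conditioned array (0.0586 and 0.0591) or either conditioned 48 h array (0.218 and 0.361). With its probes averaged the change was 0.57 (0.2), and the other Lss probes gave 0.70 (adjusted p = 0.231) and -0.13 (0.968).

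Acat2, the first enzyme of the pathway, read 1359, 723, 943 and 1185 at time zero, 2002 and 1479 (unconditioned) and 1596 and 1505 (conditioned) at 24 h, 1946 and 1936 (unconditioned) and 2136 and 1908 (conditioned) at 48 h. All medium arrays lay above time zero. Its changes at 48 h of 0.91 ± 0.31 (unconditioned) and 0.82 ± 0.31 (conditioned) had adjusted p of 0.142 and 0.0677.

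Idi1, the isomerase that supplies the isoprenoid building blocks, read 1047, 591, 871 and 1179 at time zero, 1603 and 1967 (unconditioned) and 1093 and 1424 (conditioned) at 24 h, 1210 and 1492 (unconditioned) and 1198 and 1457 (conditioned) at 48 h. The conditioned arrays at 24 h overlapped time zero and the other 3 groups did not. In unconditioned medium at 24 h it stood highest, with a change of 0.80 ± 0.32 (adjusted p = 0.22). A dimmer Idi1 probe stood highest in conditioned medium at 24 h instead, at 1.51 (limma adjusted p = 0.0892). Its arrays there read 695 and 103, against 76.0 to 88.1 at time zero.

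Sqle, the squalene epoxidase and a rate-limiting step, lay below the median of all probes in all 4 comparisons on its brightest probe. It read 695, 999, 536 and 925 at time zero, 663 and 761 (unconditioned) and 680 and 747 (conditioned) at 24 h, 624 and 857 (unconditioned) and 683 and 668 (conditioned) at 48 h. All 8 medium arrays lay inside the time zero range, and its changes lay between -0.35 and -0.08. A dimmer Sqle probe gave 0.30, 0.03, -0.18 and 0.27, and on the smaller design Sqle changed by 0.63, 1.58, 0.83 and 1.24, from 208 and 457 at time zero to 479 to 776 in the medium groups, so its direction differed between probes. Of the late steps, Msmo1, a methylsterol oxidase, changed by 0.64 to 0.99 and Hsd17b7, a sterol ketoreductase, by 0.55 to 0.86, without a call. The other 11 enzymes changed by -0.50 to 0.74, and Fdft1, the squalene synthase, stood lowest in conditioned medium at 48 h at -0.45. Its arrays there read 801 and 2069, below and above the time zero range of 1239 to 1753. A second Fdft1 probe gave -0.46.

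Of the regulators on their brightest probes, none of 5 was called in any comparison with time zero (adjusted p 0.118 or higher, with an unadjusted p under 0.05 in 1, 1, 2 and 0). Group medians were 0.31, 0.29, 0.63 and 0.13.

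Insig1, which retains Scap and is itself an SREBP target, read 2629, 1309, 2096 and 3276 at time zero, 2519 and 4046 (unconditioned) and 2272 and 2362 (conditioned) at 24 h, 2628 and 4523 (unconditioned) and 2197 and 3313 (conditioned) at 48 h. Every group overlapped time zero, and the changes were 0.35, -0.11, 0.63 and 0.13.

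Insig2, the second retention protein, lay below the median of all probes in all 4 comparisons, with 1153, 644, 1030.5 and 1460 at time zero, 853 and 1012 (unconditioned) and 1024 and 1008 (conditioned) at 24 h, 475 and 790 (unconditioned) and 810 and 1029 (conditioned) at 48 h. These groups overlapped, and its lowest change was -0.76 ± 0.34 in unconditioned medium at 48 h (adjusted p = 0.345).

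Scap, the SREBP escort, read 2485, 1121, 1243 and 2477 at time zero, 2595 and 3611 (unconditioned) and 3871 and 3639 (conditioned) at 24 h, 2145 and 3492 (unconditioned) and 2881 and 2825 (conditioned) at 48 h. Apart from the unconditioned 48 h array that stood apart, its medium arrays lay above time zero, with the highest change of 0.95 ± 0.37 in conditioned medium at 24 h (adjusted p = 0.118).

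Srebf2, the SREBP of sterol genes, read 1352, 1012, 918 and 1408 at time zero, 1396 and 1892 (unconditioned) and 1643 and 1565 (conditioned) at 24 h, 644 and 1475 (unconditioned) and 1258 and 1167 (conditioned) at 48 h. The 24 h conditioned arrays lay above time zero, the other 3 groups overlapped it, and the changes were 0.31, 0.29, -0.25 and -0.09. Stard4, a carrier of cholesterol between membranes, read 359, 256, 324 and 354 at time zero with 423 and 439 (unconditioned) and 433 and 592 (conditioned) at 24 h, and 377 and 707 (unconditioned) and 494 and 454 (conditioned) at 48 h. All 8 medium arrays lay above time zero, and its changes of 0.24 to 0.68 were not called. A second Stard4 probe changed by 0.88, 0.37, 0.76 and 0.79, also without a call (limma adjusted p = 0.121, 0.395, 0.22 and 0.0628).

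**Figure D3:**
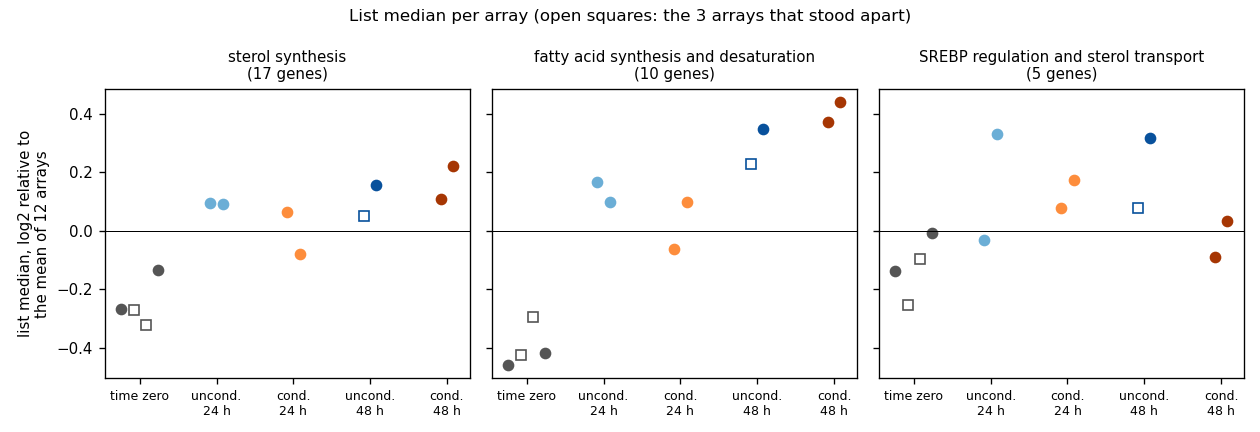
Median of each group of genes on each of the 12 arrays (vertical axis, log2 relative to the mean of the 12 arrays and to the median of all probes on that array); open squares are the 3 arrays that stood apart. For fatty acid synthesis and desaturation the 4 time zero arrays lie between -0.46 and -0.30 and the 48 h arrays between 0.23 and 0.44, and for SREBP regulation the arrays overlap.

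Other cell types could contribute to these levels, since in a bulk sample fewer cells of a type and less RNA per cell cannot be told apart. Markers of fibroblasts (8 of 9 measured, 4 past the filter) summed to 3660 to 6759 at time zero, 7388 to 8326 (unconditioned) and 11177 to 13485 (conditioned) at 24 h, and 8668 to 13990 and 16175 to 16390 at 48 h. Most of the sum in conditioned medium was Fn1, which also other cells make (7089 and 7811 at 24 h, 11060 and 10069 at 48 h), while Col1a1 at 48 h read 4117 and 7144 (unconditioned) and 3260 and 3783 (conditioned). Pdgfra, Dcn, Lum and Tcf21 were below the filter, at 51.6 or less on every array. Endothelial markers (5 of 6, all 5 past the filter) summed to 917 to 1380 at time zero, 1306 to 1715 and 1567 to 1683 at 24 h, and 1968 to 3113 and 2543 to 2696 at 48 h. At 48 h 4 of the 5 were called higher in each medium, and Kdr was called lower (-2.15 unconditioned, adjusted p = 0.00249, and -1.66 conditioned, 0.016). Smooth muscle and pericyte markers (6 of 6, 5 past the filter) summed to 17382 to 30864 at time zero, 45033 to 53327 and 30498 to 33183 at 24 h, and 30717 to 39267 and 42056 to 44257 at 48 h. The conditioned 48 h arrays lay above time zero in these 3 sums. Of all probes, 22.4% lay wholly above time zero in that comparison.

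Adipocyte markers (6 of 7, 3 past the filter) summed to 181 to 311 at time zero, 349 to 488 and 643 to 700 at 24 h, and 374 to 498 and 707 to 929 at 48 h. Most of this was Pparg, a lipid-sensing receptor also found outside fat (169, 70.5, 96.0 and 166 at time zero, 588 and 807 in conditioned medium at 48 h). Fabp4 and Cidec, 2 defining markers, were at the floor on 6 and 9 of the 12 arrays. Adipoq and Lep, of the same list, passed the filter and were at the floor on 0 and 2 arrays. Adipoq read 14.2 to 64.1 at time zero, and all its medium arrays lay inside that range. Leukocyte markers (6 of 6, 5 past the filter) summed to 746 to 1440 at time zero and 923 to 1558 in the medium groups. The part of any of these cells in the changes of the members was not tested.

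Conditioned against unconditioned medium, the comparison the title turns on, called 0 of 32 members with the times pooled, against 0.920% of all probes. It called 0 of 32 at 24 h (0.245% of all probes) and 0 of 32 at 48 h (0.148%), and the difference between the 24 h and 48 h effects called 0 of 32 (0.00%). On their brightest probes 0 of 32 had a limma unadjusted p under 0.05 in any of these 4 comparisons. Of all probes 11.0%, 5.29%, 8.69% and 2.19% had one. Of 14 further probes past the filter, only that of Fdft1 did. It changed by -0.70 over both times (limma unadjusted p = 0.0386, adjusted 0.413) and by -0.85 at 24 h (0.0472, adjusted 0.935). On the smaller design the Fdft1 probes changed by -0.56 and -0.88 at 24 h, and by -0.37 and -0.75 at 48 h. The median member changed by 0.04 with the times pooled, by -0.10 at 24 h and by 0.08 at 48 h, and 17, 13 and 18 of 32 lay above the median of all probes.

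Over both times the members ran from -0.61 ± 0.35 for Dhcr7, the last reductase of cholesterol synthesis (95% interval -1.35 to 0.13), to 0.44 ± 0.34 for Ebp, a late sterol isomerase (-0.28 to 1.16). Fdft1 changed by -0.52 (-1.14 to 0.11), Insig1 by -0.49 (-1.14 to 0.15) and Idi1 by -0.35. Scd2 changed by 0.12 with the times pooled, by -0.29 ± 0.38 at 24 h and by 0.52 ± 0.38 at 48 h (95% interval -0.28 to 1.31, adjusted p = 0.645). The difference between these effects of Scd2 was 0.79 ± 0.53 (adjusted p = 1). The widest 95% interval with the times pooled was that of Scd, -1.52 to 1.32, so a difference was not detectable with these arrays, which is not to say that it is absent. Of the markers, Fn1 of the fibroblast list was higher in conditioned medium (1.61, adjusted p = 0.00242) and Cd74 of the leukocyte list lower (-3.79, 0.0014), and no marker of cardiomyocytes, smooth muscle, endothelium or adipocytes was called.

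Without the 3 arrays that stood apart, which left only replicate 3 in unconditioned 48 h, Ebp changed by 0.75 over both times. Arrays of conditioned medium lay wholly above those of unconditioned medium for 5 of 32 members at 24 h (24.1% of all probes) and wholly below for 6 (22.4%), and at 48 h for 8 (29.9%) and 0 (11.6%). Over both times it was 0 and 0 (8.63% and 2.78%). These shares are no higher than those of all probes.

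**Figure D4:**
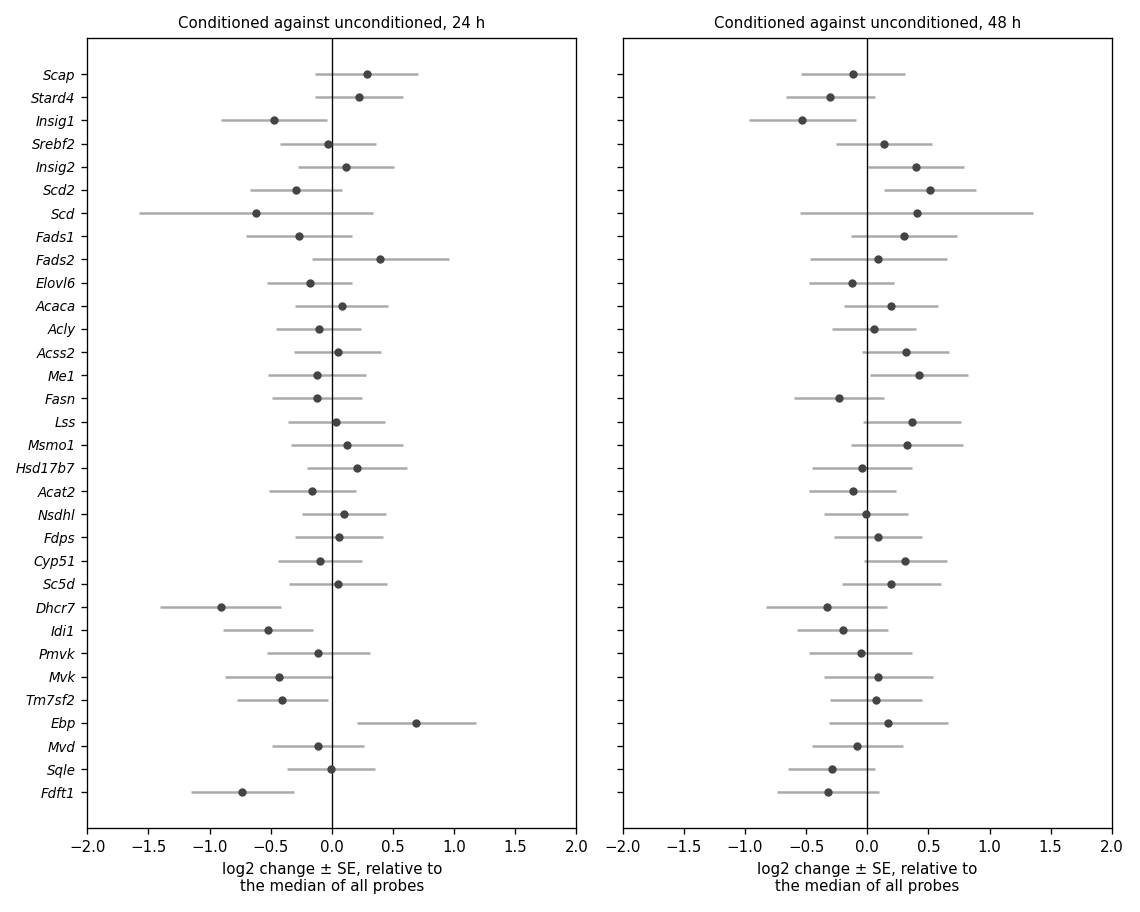
Log2 change ± SE (horizontal axis, relative to the median of all probes) of each of the 32 members between conditioned and unconditioned medium at 24 h and at 48 h, each with 2 arrays a group. No member was called at either time, and Dhcr7 at 24 h (-0.91) and Insig1 at 48 h (-0.53) stand lowest.

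Between 24 h and 48 h in unconditioned medium 0 of 32 members were called (0.00% of all probes). On their brightest probes 0 of 32 had an unadjusted p under 0.05 by limma (5.21%). A second Me1 probe changed by -0.78 there (limma unadjusted p = 0.0404, adjusted 0.937). In conditioned medium 0 of 32 were called (0.00422%) and 1 of 32 had an unadjusted p under 0.05 (2.52%). The 48 h arrays lay wholly above those at 24 h for 0 members and below for 6 in unconditioned medium (8.82% and 21.4% of all probes), and for 12 and 5 in conditioned medium (25.6% and 26.1%). The member with an unadjusted p under 0.05 in conditioned medium was Scd2, which changed by 1.06 ± 0.38 (95% interval 0.26 to 1.85, adjusted p = 1). Fads1 changed by 0.91 and Scd by 1.57, neither with an unadjusted p under 0.05.

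The smaller design, with 2 arrays at time zero and 1 in each other group, has no replicate check in the medium groups. Of the 21 members that passed the filter there, 18, 17, 18 and 18 changed in the same direction on both designs in the 4 comparisons with time zero in the order above, and 13 of 21 did for medium over both times. Fads1 read 80.1 and 118 at time zero, 152 (unconditioned) and 133 (conditioned) at 24 h, and 250 and 190 at 48 h. Its medium arrays lay above both time zero arrays. Scd2, below the filter on that design, read 27 and the floor of 15 at time zero, 95 and 77 at 24 h and 184 and 81 at 48 h, with the unconditioned array the higher at both times.

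Both ABC exporters of sterols, Abcg1 and Abca1, were called higher against time zero in conditioned medium, and Abcg1 also in unconditioned medium. Of 14 tested genes of sterol uptake, efflux and esterification, 1, 2, 1 and 2 were called higher in the 4 comparisons in the order above. Of all probes 0.739%, 2.57%, 2.03% and 5.39% were called higher. Called lower were 0, 0, 1 and 0 of 14, against 0.0760%, 0.599%, 0.869% and 1.07% of all probes. Abcg1, a sterol exporter, read 1229, 704, 718 and 982 at time zero, 2527 and 2288 (unconditioned) and 3694 and 3796 (conditioned) at 24 h, 1705 and 2353 (unconditioned) and 4025 and 4301 (conditioned) at 48 h, and all medium arrays lay above time zero. It rose by 1.26 (adjusted p = 0.0303), 1.90 (5.81e-04), 1.17 (0.0452) and 2.07 (1.79e-04). Both conditioned calls were kept without any 1 array. The unconditioned calls ended when 1 array was left out, without 7 arrays of 12 at 24 h (adjusted p 0.0692 to 0.334) and without 9 at 48 h (0.0694 to 0.271), and that at 24 h also when tested relative to the median (0.0909).

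Abca1, its partner exporter, rose by 1.52 (adjusted p = 0.0348) at 24 h and by 1.75 (0.0105) at 48 h in conditioned medium, the former not called relative to the median (0.0737), and neither without 1 of its own conditioned arrays (adjusted p 0.0986 to 0.448). The former also ended without time zero replicate 5 or without any 24 h unconditioned or 48 h conditioned array (0.054 to 0.0722). Abca1 read 27.1 to 63.5 at time zero, and 105 and 115 (unconditioned) and 118 and 136 (conditioned) at 24 h. Both media thus lay above time zero at 24 h. At 48 h it read 53.5 and 57.5 (unconditioned), within the time zero range, and 172 and 125 (conditioned). Apoe, the apolipoprotein that accepts exported sterol, fell by 2.07 in unconditioned medium at 48 h (adjusted p = 0.00141), to 288 and 419 from 1048 to 2130 at time zero. In conditioned medium at 48 h Apoe read 882 and 878, also below time zero, with no call. None of the 3 tested genes of other sterol and isoprenoid synthesis (Ggps1, Pdss2 and Dhdds) was called against time zero.

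Of 15 tested genes of other fatty acid and triglyceride synthesis, 0, 1, 0 and 5 were called higher and none lower. Of all probes 0.739%, 2.57%, 2.03% and 5.39% were called higher. At 48 h in conditioned medium these were Elovl5, an elongase of polyunsaturated chains (1.57, adjusted p = 0.0129), Acsl3, an acyl-CoA synthetase (1.28, 0.0212), Slc25a1, the mitochondrial citrate carrier (1.17, 0.0266), Hsd17b12, a reductase of chain elongation (1.11, 0.0204), and Mid1ip1, an activator of acetyl-CoA carboxylase (1.00, 0.0257). Mid1ip1 was also just past the threshold at 24 h in conditioned medium (0.95, 0.0476), a call that ended in 9 of 12 fits with 1 array left out (adjusted p up to 0.457) and when tested relative to the median (0.126). Without either conditioned 48 h array none of these 5 was called (adjusted p 0.0971 to 0.28), and without time zero replicate 5 Slc25a1, Mid1ip1 and Acsl3 were not (0.0742, 0.065 and 0.0503). Tested relative to the median, Elovl5 and Acsl3 stayed called (adjusted p = 0.0278 and 0.0484), and Slc25a1, Hsd17b12 and Mid1ip1 did not. None of the genes of these 3 lists was called between the media with the times pooled (0.920% of all probes). There limma gave an unadjusted p under 0.05 for 0 of 3, 5 of 14 and 3 of 15, against 11.0% of all probes.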

How the data were processed

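RNA of 18 samples was labelled with biotin and read on CodeLink arrays, 1 colour each and of 2 designs, per the labels. The deposited values are linear intensity per probe; how they were scanned, background-corrected or normalized is not given in the sources used here. Within a table, arrays were scaled to a common median and floored at 0.05 of it (4.84) before log2. Probes whose mean was not above the 30th percentile were dropped. A linear model of all 5 groups (limma 3.58.1, R 4.3.3, trended eBayes, 7 residual and 10.4 prior degrees of freedom) gave p-values, adjusted by Benjamini-Hochberg over 23694 probes. They test the change before the median change of all probes was subtracted. A gene is its brightest probe among those that GEO's platform annotation assigns to 1 gene (16753 of 33849). The smaller table was scaled alone and only described. The pipeline was tested on simulated data.

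The members and lists were chosen with earlier results of these data known. Values on every array are given for members called in a comparison, for the members with the smallest p up to 3 a list, and for Sqle, Insig1, Srebf2, Scd, Scd2 and Fasn. Alternatives were other scalings, floors, filters, probe rules, array weights, fewer groups, both tables together, and arrays left out. The test relative to the median of all probes was added after the data were seen. Intervals are 95% and take that median as fixed.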

Additional observations from a re-analysis of the deposited data

How the results depend on the processing

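Scd2 was called at 48 h against time zero in both media under every alternative that measured it. The number of members called between the media over both times, at 24 h, at 48 h, and for the difference of these effects stayed at 0 under every alternative, except 1 (Ebp) over both times without the 3 arrays that stood apart. Against time zero, members called are given in the order unconditioned 24 h, conditioned 24 h, unconditioned 48 h and conditioned 48 h. Scaling to the 75th percentile gave 2, 3, 6 and 9 in place of 1, 1, 1 and 4. With it 2.03%, 8.10%, 8.89% and 12.7% of all probes were called in either direction. In the main fit these shares were 0.815%, 3.17%, 2.90% and 6.47%, so the background rose as well. Quantile normalization gave 4 for conditioned 24 h (8.43% of all probes) and 6 for unconditioned 48 h (9.89%). Array weights gave 4 for conditioned 24 h (13.1%) and 13 for conditioned 48 h (20.7%). Both tables fitted together, which held only 21 members and 4613 probes, gave 3 for unconditioned 48 h (10.2%). For conditioned 48 h, no filter gave 1 (2.80%). Only the groups compared, or the test relative to the median of all probes, gave 2 (4.25% and 4.88%). Between 24 h and 48 h in conditioned medium, array weights and only the groups compared gave 2 (6.21% and 6.01% of all probes). Leaving out 1 array at a time gave 0 to 1, 0 to 3, 1 to 1 and 1 to 6 called against time zero and 0 to 0 elsewhere. The 3 and 6 in conditioned medium came without time zero replicate 6, and the 1 without either conditioned 48 h array. Under quantile normalization Mvd and Insig2 were called lower, in conditioned and unconditioned medium at 48 h, Insig2 also with the 75th percentile. The cause was not tested. The median member stayed above 0 against time zero throughout. Quantile normalization moved it to 0.31, 0.24 and 0.41 for unconditioned 24 h, conditioned 24 h and conditioned 48 h, to 0.055 for the difference of medium effects and to 0.13 for 48 h against 24 h in unconditioned medium. No filter moved it to 0.49, 0.44 and 0.65 for the same 3 and to 0.17 for medium at 48 h. Both tables together, a set of 21 members and so not the same genes, gave 0.27 for unconditioned 24 h and 0.28 and 0.34 at 48 h. That fit gave 0.032 and -0.016 for medium at 24 h and 48 h, and 0.016 for the difference. Array weights gave 0.40 and 0.44 at 48 h. Without the 3 arrays it was 0.25 for conditioned 24 h, 0.44 for conditioned 48 h and 0.10 for 48 h against 24 h in unconditioned medium. With 1 array left out the median ran from 0.37 to 0.45, 0.28 to 0.38, 0.35 to 0.55 and 0.44 to 0.60 against time zero, from -0.021 to 0.072 for medium over both times, -0.10 to 0.038 at 24 h, 0.037 to 0.082 at 48 h, 0.085 to 0.19 for the difference, and -0.059 to 0.11 and 0.034 to 0.21 for 48 h against 24 h in unconditioned and conditioned medium. No paired analysis was possible because the replicate numbers only follow the order of the samples. The number of arrays limits the precision.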

Other observations

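Between conditioned and unconditioned medium, genes of sterol export and of sterol sensing had small p-values that did not survive adjustment over all probes. At 48 h, 5 of the 14 tested genes of sterol uptake, efflux and esterification had an unadjusted p under 0.05, against 8.69% of all probes. Apoe changed by 1.16 ± 0.37 (limma adjusted p = 0.257), Abca1 by 1.22 ± 0.49 (0.414), Abcg1 by 0.88 ± 0.35 (0.378) and Nr1h2, a sterol-sensing nuclear receptor, by 0.98 ± 0.38 (0.364), while Soat2, which esterifies cholesterol, changed by -1.26 ± 0.42 (0.47). None of the 5 was called. Their arrays did not overlap between the media at 48 h, but they were picked by p in this comparison, so this adds no support. In the whole list the conditioned arrays lay wholly above for 9 of 14 genes and wholly below for 1. Of all probes this held for 29.9% and 11.6%.

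Probes of 1 gene did not always move together. For the 12 members with a further probe past the filter, 10 to 11 of 14 further probes had the sign of the brightest one in the 4 comparisons with time zero, and 6 to 8 of 14 between the media. On the smaller design Nsdhl, a sterol dehydrogenase, read the floor of 15 in unconditioned medium at 48 h and 291 to 466 on the other 5 arrays, while on the larger design it read 706 and 994 there.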
